A study of Mus musculus with 8 samples.

Results

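The genes described here are 9 that encode proteins of the red cell membrane, its skeleton and surface, and the carbonic anhydrases of the erythroid lineage. They are Slc4a1, Ank1, Epb42, Add2, Rhag, Ermap, Cldn13, Car1 and Car2, picked by symbol from the expression tables, and all 9 are among the 15142 genes listed in every table. They were followed in RNA from hematopoietic stem cells (HSCs) sorted from C57BL/6 wild-type mice in 8 libraries, 8 to 12 weeks being the age range given for mice of the study as a whole. Phenylhydrazine (PHZ) destroys circulating red cells and was injected into the peritoneum at 60 mg/kg, 2 injections in all, and marrow (PHZ BM HSC, n = 3) or spleen (PHZ SP HSC, n = 2) was collected on day 3 after the second of them. The control BM HSC group (n = 3) came from marrow of mice that received no PHZ. The labels give these controls PBS, and the study calls them untreated. All groups were sorted as lineage-negative (Ter119, B220, Gr-1, CD2, CD3 and CD8), Sca-1+, c-kit+, CD150+ and CD48-/low, with marrow first enriched for c-kit on beads. No spleen HSCs of control mice were sequenced, so tissue and PHZ cannot be told apart in the comparison of spleen with control marrow. Nothing in the labels says that libraries came from separate mice, so every p-value below measures the spread between libraries, which may be technical.

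A red cell holds its shape because a mesh of spectrin and actin lies under the membrane and is tied to proteins that cross it. Slc4a1 encodes the anion exchanger that swaps bicarbonate for chloride and is the main membrane anchor. Ank1 encodes the ankyrin that links this exchanger to spectrin, Epb42 a protein that steadies that link, and Add2 the beta subunit of adducin, which caps actin at the corners of the mesh. Rhag encodes the Rh-associated glycoprotein, an ammonia channel of the Rh complex. Ermap encodes an erythroid membrane-associated protein with an immunoglobulin fold, which carries the Scianna blood group in humans, and Cldn13 a claudin found in rodents and known from erythroid cells. Car1 and Car2 encode cytosolic carbonic anhydrases, which convert carbon dioxide to the bicarbonate that the anion exchanger carries. Most of these genes are known to be switched on as erythroid progenitors mature, under GATA1 and KLF1, and stem cells are known to express little of them. Of the 9, 5 (Slc4a1, Ermap, Add2, Cldn13 and Car1) are in a set of 8 erythroid and iron genes displayed by the study. The study reported them as changed in spleen HSCs of PHZ-treated mice against control marrow HSCs, by DESeq2 on these same libraries. Their direction here is therefore not independent evidence. The main fit described below calls neither Add2 nor Car1 in that comparison, unlike the study.

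RefSeq start-site windows of 300 bases (250 before the start and 50 after) were available for 4 of the 9 genes, Ermap, Rhag, Epb42 and Add2. They are shown because the letters GATAA, the core bound by GATA factors, can be seen in them beside the expression values that follow. Capitals mark GATAA or its reverse complement TTATC. All are read 5′ to 3′ on the gene's own strand, in build GRCm38.p6, from chr4:119189946-119190245 on the minus strand for Ermap, chr17:40810899-40811198 on the plus strand for Rhag, chr2:121036828-121037127 on the minus strand for Epb42 and chr6:86028431-86028730 on the plus strand for Add2.
Ermap: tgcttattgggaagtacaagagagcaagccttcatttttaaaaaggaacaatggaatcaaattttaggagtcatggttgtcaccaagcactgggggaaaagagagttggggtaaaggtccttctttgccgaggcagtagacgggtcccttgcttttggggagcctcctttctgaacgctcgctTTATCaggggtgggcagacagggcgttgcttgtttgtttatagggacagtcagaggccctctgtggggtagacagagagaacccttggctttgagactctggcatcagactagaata
Rhag: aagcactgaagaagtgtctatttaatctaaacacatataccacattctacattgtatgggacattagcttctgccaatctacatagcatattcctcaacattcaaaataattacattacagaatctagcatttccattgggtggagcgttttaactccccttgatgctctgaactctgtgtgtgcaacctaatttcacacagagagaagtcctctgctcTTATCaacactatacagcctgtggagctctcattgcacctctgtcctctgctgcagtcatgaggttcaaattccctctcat
Epb42: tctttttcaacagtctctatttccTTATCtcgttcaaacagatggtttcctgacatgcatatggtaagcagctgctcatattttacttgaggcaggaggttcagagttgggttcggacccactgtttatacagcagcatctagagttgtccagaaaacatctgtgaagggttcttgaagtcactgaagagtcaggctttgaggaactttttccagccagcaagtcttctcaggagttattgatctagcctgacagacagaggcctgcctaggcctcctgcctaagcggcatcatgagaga
Add2: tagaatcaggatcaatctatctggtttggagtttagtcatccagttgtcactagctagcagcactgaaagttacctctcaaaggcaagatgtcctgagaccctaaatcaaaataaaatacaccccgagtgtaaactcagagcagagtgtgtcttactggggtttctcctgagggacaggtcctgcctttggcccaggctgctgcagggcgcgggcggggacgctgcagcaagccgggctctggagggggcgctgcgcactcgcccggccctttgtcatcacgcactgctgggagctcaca

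With the start base counted as 0, the first letter of TTATC lay at -67 in Ermap, at -31 in Rhag and at -226 in Epb42, and neither orientation was found in the Add2 window. The start base of the window lay 18 bases inside the outer end of the Ermap gene given with its coordinates and 50 bases inside that of Rhag, and at that end in Epb42 and Add2. GATAA or TTATC was in 3 of 4 windows, against 25.4% of all 32851 RefSeq windows of that length. The letters CACCC or GGGTG, the core bound by KLF factors, were also in 3 of 4 (Ermap at -60, Rhag at -112 and Add2 at -131), against 57.5% of all windows. The 2 motifs share no letters in Ermap, where they were 7 bases apart from first letter to first letter. These are matches of letters in short windows and do not show binding.

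The levels of the 9 genes spanned a wide range in control BM HSCs, given here as FPKM (fragments counted per kilobase of a gene and corrected for depth, so that levels of different genes can be set side by side). Car2 averaged 444 ± 59.1 FPKM (SD, n = 3), and no other member came near it in any control library. Car1 followed at 7.50 ± 4.77, Slc4a1 at 2.86 ± 1.07 and Rhag at 2.33 ± 1.76 FPKM. The remaining 5 averaged under 1 FPKM, with Epb42 at 0.512 ± 0.364, Cldn13 at 0.444 ± 0.523, Ermap at 0.236 ± 0.356, Ank1 at 0.172 ± 0.112 and Add2 at 0.111 ± 0.158. Apart from Car2 and Car1, whose ranges were separate, each neighbour in this order overlapped the next. The order of neighbours among the lower 8 is therefore not resolved. Car1 and Slc4a1, at 2.11 FPKM or more in every control library, were separate from the last 5, which were at 1.02 FPKM or less. There were 3 members with a control library that held no read, namely Ermap and Cldn13 in control 1 and Add2 in control 2. A count of 0 allows up to 3 reads, which at these depths is 0.0579 FPKM for Ermap, 0.288 FPKM for Cldn13 and 0.0327 FPKM for Add2 (counting error only). Control 1 was the lowest of all 8 libraries for 6 of the 9 genes, yet it was the highest control for Car1.

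In PHZ SP HSCs the order of levels was Car2, Car1, Slc4a1, Cldn13, Rhag, Ermap, Add2, Ank1 and Epb42. Cldn13, at 13.2 ± 2.95 FPKM, had a higher mean than Rhag at 11.3 ± 2.73 FPKM there. Their means were in the reverse order in control marrow, but their ranges overlapped in both groups, so a reversal is not shown. Epb42 came last with libraries at 0.512 and 1.72 FPKM. In the spleen order Car1 overlapped Slc4a1, Cldn13 overlapped Rhag and Ank1 overlapped Epb42, while the other neighbours were separate in these 2 libraries.

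**Figure D1:**
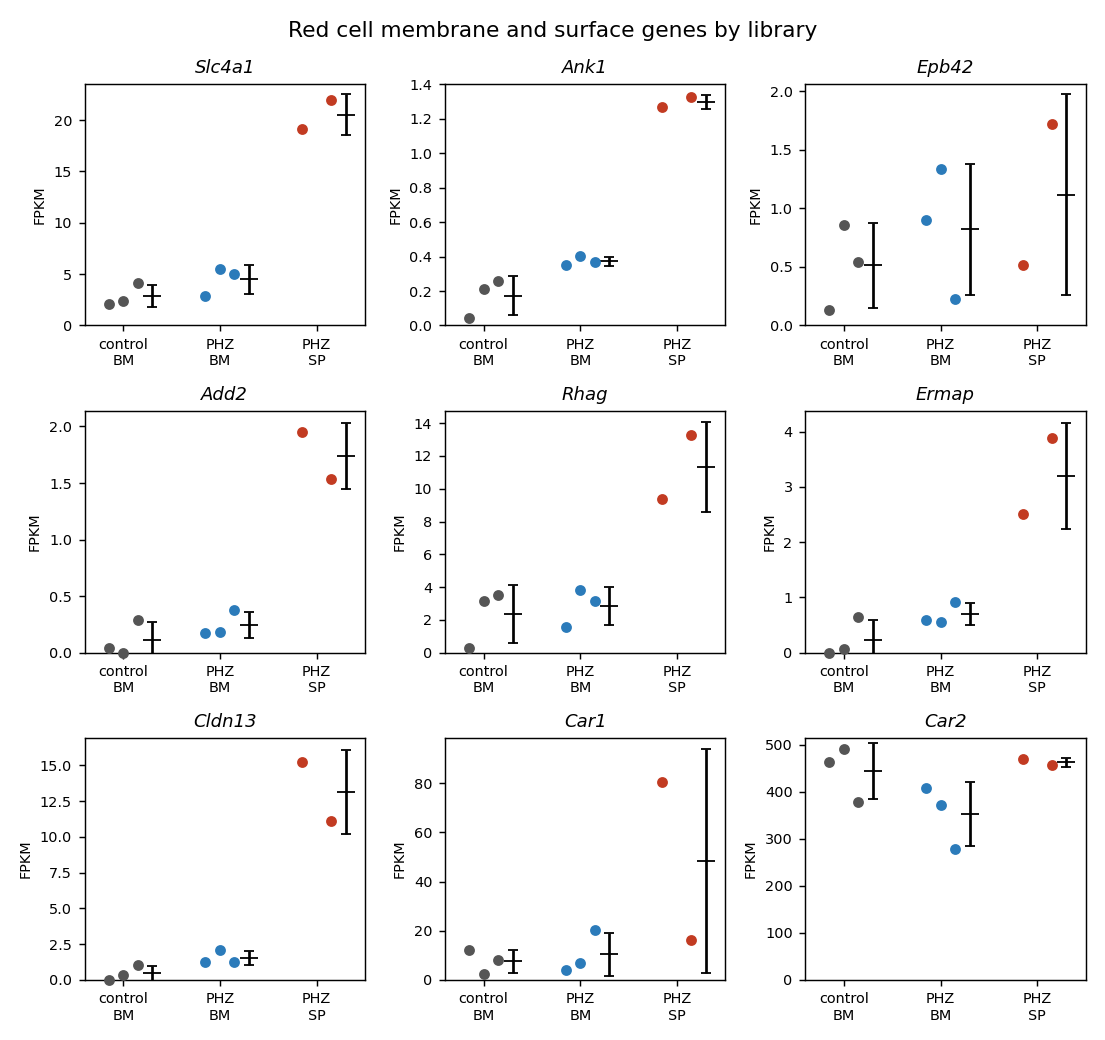
Level of each of the 9 genes (y axis, FPKM on a linear scale from 0) in control BM, PHZ BM and PHZ SP HSCs (x axis). Points are libraries, and the black mark is the mean with its SD to the right of them, cut at 0 where it would pass below. Both spleen libraries lie above all 6 marrow libraries for Slc4a1, Ank1, Add2, Rhag, Ermap and Cldn13, whereas the groups overlap for Epb42.

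Compared with control BM HSCs, PHZ SP HSCs had higher Slc4a1, Cldn13 and Ermap. These were 3 of the 9 genes, and none was lower, whereas over all 11347 genes tested 0.626% were called higher (limma with Benjamini-Hochberg adjustment at 0.05). All 9 differences were above 0, with a median of 1.78 on the log2(FPKM + 1) scale against -0.001 over all genes tested. In 7 of 9 both spleen libraries lay above all 3 control libraries, a pattern that 15.2% of tested genes showed. Ermap, Add2 and Ank1 reached the 1 FPKM needed for testing only in the spleen libraries, so a count over tested members is tilted toward a difference. A sample of sorted cells cannot tell apart a change in RNA per cell from a change in the share of cells that hold the RNA.

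The anion exchanger gene Slc4a1 read 2.11, 2.37 and 4.09 FPKM in the control libraries, 2.87, 5.53 and 5.05 in PHZ BM HSCs, and 19.1 and 21.9 in PHZ SP HSCs. Those spleen values came from 1046 and 1116 reads, against 101 to 257 reads in the controls. Spleen stood apart from both marrow groups, which overlapped each other. The difference of spleen from control was 2.51 ± 0.31 (SE, log2 scale, limma adjusted p = 0.0039), a ratio of mean FPKM of 7.18. Without either spleen library, which leaves 1 sample assumed to vary like the other groups, the adjusted p was 0.0533 (without PHZ SP HSC 1) and 0.0535 (without PHZ SP HSC 2).

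Cldn13, the claudin gene, read 0, 0.311 and 1.02 FPKM in control, 1.25, 2.10 and 1.23 in PHZ BM, and 15.3 and 11.1 in PHZ SP HSCs. These values rest on 0, 3 and 14 reads in the controls and on 182 and 123 in spleen. The 3 groups were all separate, in the order control marrow, PHZ marrow and spleen. It had the largest difference among the 9 on the log2 scale, 3.34 ± 0.34 against control (limma adjusted p = 0.00162; 5.55 and 0.0425 with voom on reads), and passed in each of 8 refits with a library removed and in all 8 other alternatives in which it could be tested.

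Ermap read 0, 0.0626 and 0.646 FPKM in control, 0.594, 0.563 and 0.920 in PHZ BM, and 2.52 and 3.88 in PHZ SP HSCs. Spleen was above every marrow library, and control 3, with 44 reads, lay inside the PHZ BM range. The difference from control was 1.78 ± 0.34 on the log2 scale (limma adjusted p = 0.047), and 5.19 with voom on reads (adjusted p = 0.0623). This call was close to the threshold and passed in 3 of 8 other alternatives and, of 6 refits with a library removed, only without control 3 (adjusted p = 0.0416, against 0.0606 to 0.0933 in the others). Without the filter on low values it was lost (adjusted p = 0.0553), and it was below the filter when either spleen library was left out.

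The other skeletal genes were high in spleen by their values but did not pass. Add2 read 0.0404, 0 and 0.292 FPKM in control, 0.169, 0.179 and 0.374 in PHZ BM, and 1.95 and 1.54 in PHZ SP HSCs (1.31 ± 0.33 on the log2 scale from control, limma adjusted p = 0.0895). Ank1 read 0.0454, 0.213 and 0.259 FPKM in control, 0.353, 0.401 and 0.366 in PHZ BM, and 1.27 and 1.33 in PHZ SP HSCs (0.98 ± 0.31, limma adjusted p = 0.162). In both genes the spleen libraries were above all 6 marrow libraries, and the 2 spleen values for Ank1 were within a ratio of 1.05 of each other. The pseudocount of 1 FPKM compresses such low genes, and the ratio of mean FPKM of spleen to control was 7.54 for Ank1. With voom on reads the log2 differences were 5.22 for Add2 and 3.16 for Ank1 (limma adjusted p = 0.0555 and 0.0584). No ratio is given for Add2, because 38 of the 42 reads in control came from control 3. Without the filter on low values, Add2 passed (limma adjusted p = 0.035). A long non-coding gene, Gm15816, lies within Ank1 on the genome and reached at most 0.342 FPKM in any library; whether counting used strand is not given in the sources used here.

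Epb42, which codes for the partner of ankyrin and the exchanger, did not follow them. It read 0.132, 0.858 and 0.546 FPKM in control, 0.898, 1.34 and 0.229 in PHZ BM, and 0.512 and 1.72 in PHZ SP HSCs. All groups overlapped, with the first spleen library below 2 control libraries. The difference of spleen from control was 0.45 ± 0.41 (limma adjusted p = 0.628). It was 0.26 without control 1 and 0.88 without PHZ SP HSC 1. Across the 8 libraries, Epb42 had a Pearson r of 0.39 with the mean of the other 8 members after standardising, while Ank1 had 0.99, Cldn13 0.98 and Slc4a1 0.97; these are descriptions of libraries that share groups.

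Rhag, of the Rh complex, read 0.306, 3.17 and 3.53 FPKM in control, 1.55, 3.82 and 3.14 in PHZ BM, and 9.41 and 13.3 in PHZ SP HSCs. Spleen was above all marrow libraries, and control 1, with 7 reads, was far below the other controls. The difference from control was 2.07 ± 0.49 on the log2 scale (limma adjusted p = 0.0827) and 1.49 when control 1 was left out. The marrow difference, 0.35 ± 0.44, turned to -0.23 without control 1.

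**Figure D2:**
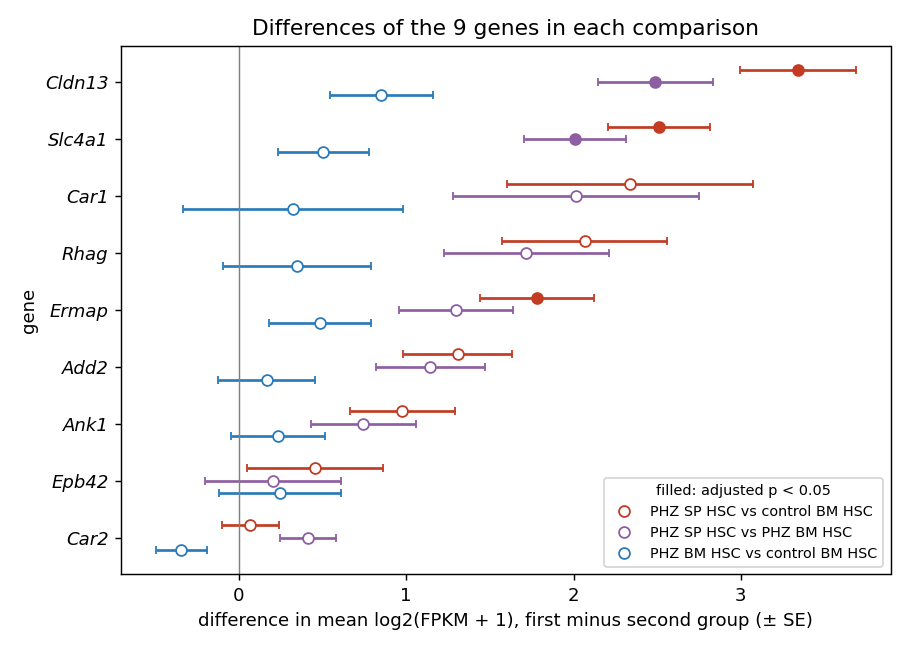
Difference in mean log2(FPKM + 1) between groups (x axis, first minus second group, bars are the SE of the limma fit) for each of the 9 genes (y axis) in the 3 comparisons. Filled points passed at an adjusted p of 0.05, and these were Cldn13 and Slc4a1 in both spleen comparisons and Ermap against control.

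The 2 carbonic anhydrases differed in level and in pattern. Car1 read 12.0, 2.48 and 8.04 FPKM in control, 3.90, 6.65 and 20.4 in PHZ BM, and 80.5 and 16.3 in PHZ SP HSCs. The spleen libraries differed from each other by a ratio of 4.96, and the second lay below PHZ BM HSC 3. The difference of spleen from control, 2.34 ± 0.74 on the log2 scale, did not pass (limma adjusted p = 0.158), and it was 1.22 without the first spleen library and 3.46 without the second.

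Car2 read 463, 491 and 377 FPKM in control, 408, 372 and 277 in PHZ BM, and 469 and 456 in PHZ SP HSCs, from 8451 to 12714 reads in every library. It was the least changed of the 9 between spleen and control, at 0.07 ± 0.17 on the log2 scale (limma adjusted p = 0.883), and its sign turned to -0.004 with equal totals, -0.069 with a replicate block and -0.043 without control 3. In PHZ BM HSCs it was 0.34 ± 0.15 lower than in control on that scale, with overlapping libraries (limma adjusted p = 0.282). That difference was -0.46 without PHZ BM HSC 1 and -0.18 without PHZ BM HSC 3.

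Of the carbonic anhydrase family, 10 genes were listed in all tables and 6 were tested. Car2 made up 92.3% to 96.0% of their summed FPKM in control, 88.6% to 95.7% in PHZ BM and 82.8% to 93.1% in PHZ SP HSCs. The ratio of Car2 to Car1 was 38.7 to 198 in control, 13.6 to 105 in PHZ BM and 5.83 to 28.0 in PHZ SP libraries. Spleen thus lay below all control libraries in this ratio and overlapped PHZ BM. Car9, a membrane carbonic anhydrase known as a hypoxia target, averaged 8.97 ± 1.87 FPKM in control, 5.31 ± 0.820 in PHZ BM and 5.88 ± 2.60 in PHZ SP HSCs. It overlaps Arhgef39 (4.12 to 11.8 FPKM over the 8 libraries) and Tpm2 (0.798 to 6.12 FPKM), so its reads are uncertain. Car13 averaged 7.69 ± 3.34, 3.23 ± 0.704 and 5.89 ± 2.95 FPKM in the same order. Car11, a family member without enzyme activity, averaged 1.64 ± 1.34, 1.81 ± 0.109 and 0.163 ± 0.230 FPKM. Car3 stayed between 1.32 and 3.80 FPKM in all libraries, and Car5b, Car7, Car8 and Car12 did not reach the level for testing. None of the 6 tested family genes passed in limma or with voom in any comparison; at an unadjusted p of 0.05 the limma fit held 2 in spleen against control, 3 in spleen against PHZ BM and 3 in PHZ BM against control, beside 15.8%, 13.5% and 16.6% of all tested genes.

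**Figure D3:**
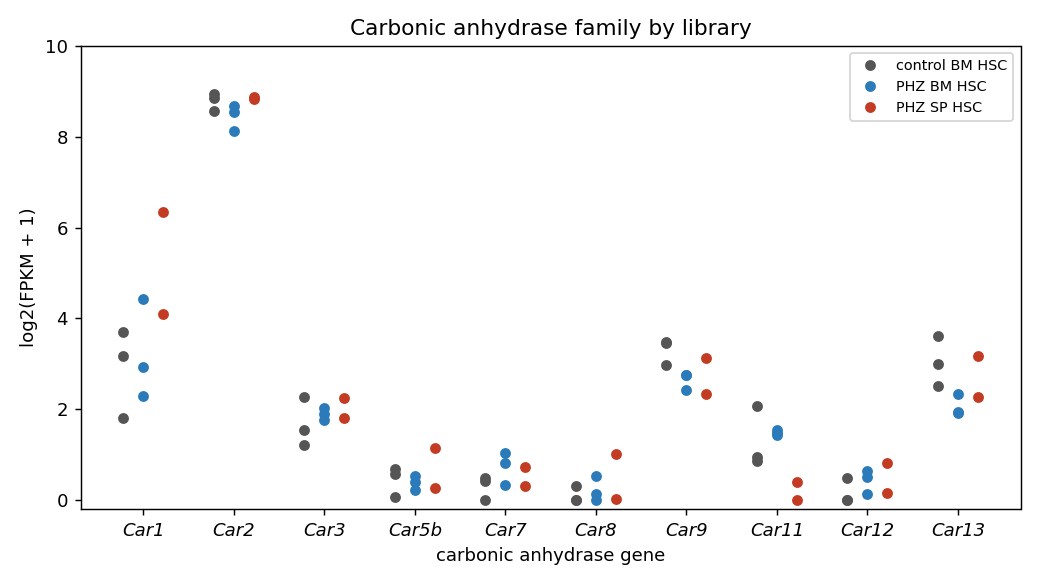
Level of the 10 listed carbonic anhydrase genes (x axis) as log2(FPKM + 1) (y axis), 1 point per library coloured by group. Car2 is above every other family gene in all 8 libraries, and Car1 is highest in the first spleen library at 80.5 FPKM.

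Within PHZ-treated mice, PHZ SP HSCs had higher Cldn13 and Slc4a1 than PHZ BM HSCs. These 2 of 9 passed, beside 0.608% of tested genes called higher, and none passed in the other direction. The members' median difference was 1.30 on the log2 scale, against -0.02 over all genes. Both spleen libraries were above all PHZ BM libraries in 7 of 9 genes, beside 17.4% of tested genes, the exceptions being Epb42 and Car1. Ermap, Add2 and Ank1, 3 of these 7, were tested only because both spleen libraries reached 1 FPKM, which no marrow library did. Their place in this count was thus fixed by the filter, and the median is tilted the same way. Cldn13 differed by 2.49 ± 0.34 on the log2 scale (limma adjusted p = 0.0102) and Slc4a1 by 2.01 ± 0.31 (limma adjusted p = 0.014). The same PHZ SP libraries enter both spleen comparisons, so the 2 are not independent. Leaving out either spleen library or PHZ BM HSC 1 ended both calls: the adjusted p was 0.144, 0.0601 and 0.0557 for Cldn13 (without PHZ SP HSC 1, PHZ SP HSC 2 and PHZ BM HSC 1) and 0.140, 0.102 and 0.0631 for Slc4a1. Cldn13 was also lost with a pseudocount of 0.1 FPKM (adjusted p = 0.137) and with voom on reads (0.0874).

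The other 7 members did not pass between the PHZ groups. Ermap differed by 1.30 ± 0.34 (limma adjusted p = 0.113) and Add2 by 1.14 ± 0.33 (limma adjusted p = 0.145) on the log2 scale. Rhag differed by 1.72 ± 0.49 (limma adjusted p = 0.149), and this fell to an adjusted p of 0.0293 without control 1, a library of neither group. Car1 differed by 2.01 ± 0.74 (limma adjusted p = 0.26), a value that was 0.89 without PHZ SP HSC 1 and 3.13 without PHZ SP HSC 2. Ank1 differed by 0.74 ± 0.31 (0.329), Car2 by 0.41 ± 0.17 (0.316) and Epb42 by 0.21 ± 0.41 (0.877).

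Between the marrow groups, no member passed in limma or with voom on reads, beside 2.74% of tested genes called in either direction and 1.48% called higher. The members' median difference was 0.32 on the log2 scale against 0.01 over all genes. At an unadjusted p of 0.05 the limma fit held 2 members, Cldn13 (0.85 ± 0.31, adjusted p = 0.182) and Car2 (-0.34 ± 0.15), beside 16.6% of all tested genes. Every PHZ BM library was above every control library for 2 of 9 genes, Cldn13 and Ank1, beside 12.3% of tested genes. Slc4a1 differed by 0.50 ± 0.27 (limma adjusted p = 0.382) and Ermap by 0.48 ± 0.31 (limma adjusted p = 0.469). Car1, at 0.33 ± 0.66, turned to -0.22 without control 2 and to -0.28 without PHZ BM HSC 3.

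The other genes of the red cell membrane were taken from a list of 38, of which 36 were tested. Against control BM HSCs, 1 was higher in spleen and none lower, with a median of 0.26 on the log2 scale, beside the 0.626% called higher over all genes. At an unadjusted p of 0.05 the fit held 11 of 36, beside 15.8% of all tested genes. Against PHZ BM HSCs, 1 was higher and none lower, with a median of 0.23, beside 0.608% called higher over all genes. In PHZ BM against control BM HSCs, 4 were higher and none lower, with a median of -0.03, beside 1.48% called higher over all genes. The median over all genes tested lay between -0.02 and 0.01 in these comparisons.

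Rhd, the partner of Rhag in the Rh complex, read 0.0642, 1.80 and 1.07 FPKM in control, 0.539, 3.41 and 4.85 in PHZ BM, and 11.1 and 9.71 in PHZ SP HSCs (2.63 ± 0.54 from control, limma adjusted p = 0.0538). As with Rhag, control 1 was the lowest library and spleen was above all marrow. Gypc, glycophorin C, was far more abundant and even across groups, at 34.7 ± 4.48 FPKM in control, 35.2 ± 6.26 in PHZ BM and 43.1 ± 6.07 in PHZ SP HSCs (0.30 ± 0.20 for spleen against control, limma adjusted p = 0.503). Kel, the Kell blood group endopeptidase, averaged 0.762 ± 0.397, 1.35 ± 0.455 and 4.53 ± 3.25 FPKM in the same order, and its spleen libraries differed from each other (2.23 and 6.83 FPKM).

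The skeleton genes of the list held no call by limma or voom in any comparison, with 7 of 9 tested (1, 2 and 1 at an unadjusted p of 0.05 in spleen against control, spleen against PHZ BM and the marrow comparison, beside 15.8%, 13.5% and 16.6% of all tested genes). Sptb, beta spectrin, read 0.118, 0.337 and 0.339 FPKM in control, 0.126, 0.386 and 0.503 in PHZ BM, and 1.69 and 1.35 in PHZ SP HSCs (0.996 ± 0.32 from control, limma adjusted p = 0.164). Both spleen libraries were above all 6 marrow libraries. Plekhg3 overlaps Sptb on the genome and read 0.148 to 0.959 FPKM over the 8 libraries. Epb41, which ties spectrin to actin and glycophorin C, averaged 4.41 ± 1.04 FPKM in control, 5.35 ± 0.757 in PHZ BM and 6.09 ± 2.96 in PHZ SP HSCs, with overlapping groups. Dmtn, dematin, an actin-bundling protein, read 0.342 to 0.882 FPKM in control, 0.388 to 0.767 in PHZ BM and 0.750 to 0.902 in PHZ SP HSCs and was below the level for testing.

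Of the transporters and channels, Aqp1, the red cell water channel, was the call between the PHZ groups. It read 9.19, 8.84 and 9.21 FPKM in control, 5.66, 3.65 and 6.30 in PHZ BM, and 15.3 and 15.9 in PHZ SP HSCs. The groups were all separate, with PHZ BM lowest, a different order from that of Cldn13. Spleen was higher than PHZ BM by 1.44 ± 0.24 on the log2 scale (limma adjusted p = 0.0215), and the call was lost without PHZ BM HSC 1, PHZ BM HSC 2 or either spleen library (adjusted p up to 0.155). Against control the spleen difference was 0.72 ± 0.24 (limma adjusted p = 0.181), and PHZ BM differed from control by -0.73 ± 0.22 (limma adjusted p = 0.109).

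The 4 genes higher in PHZ BM than in control BM HSCs were Art4, Flot1, Ackr1 and Stom, which encode surface or raft proteins, and the first 3 had their highest mean in PHZ BM HSCs. Art4, the ADP-ribosyltransferase of the Dombrock blood group, read 45.4, 21.1 and 18.0 FPKM in control, 82.5, 72.8 and 52.0 in PHZ BM, and 27.3 and 39.3 in PHZ SP HSCs (1.36 ± 0.31 for PHZ BM against control, limma adjusted p = 0.0419). Flot1, flotillin-1, a protein of lipid rafts, averaged 29.8 ± 6.90 FPKM in control, 56.0 ± 4.39 in PHZ BM and 36.4 ± 3.85 in PHZ SP HSCs (0.91 ± 0.18, limma adjusted p = 0.0208). In both, every PHZ BM library was above every library of the other groups. Ackr1, the Duffy chemokine receptor, read 0, 0 and 0.176 FPKM in control, 2.59, 2.81 and 1.99 in PHZ BM, and 0 and 1.45 in PHZ SP HSCs, on at most 36 reads a library (1.71 ± 0.35, limma adjusted p = 0.0256). Cadm3 overlaps it on the genome and reached at most 0.245 FPKM. Stom, stomatin, which binds the membrane from inside, was the gene called in both PHZ groups, at 3.63 ± 1.27 FPKM in control, 9.08 ± 0.984 in PHZ BM and 11.1 ± 1.06 in PHZ SP HSCs. It was higher than control by 1.15 ± 0.24 in PHZ BM (limma adjusted p = 0.0256) and by 1.41 ± 0.26 in PHZ SP (limma adjusted p = 0.0422), both against the same 3 control libraries. Each of these calls was lost in some refits. The spleen call of Stom was lost without any library but control 3 (adjusted p up to 0.239), and its marrow call without control 1, control 2 or any PHZ BM library (up to 0.116). Flot1 was lost without control 2, control 3 or any PHZ BM library (up to 0.0918), and Ackr1 without any marrow library (up to 0.144). Art4 was lost without control 2, control 3, PHZ BM HSC 1, PHZ BM HSC 2 or either spleen library (up to 0.166). Among the other alternatives, Art4 was lost with a pseudocount of 0.1 FPKM, no filter, equal totals and a fit of only the 2 groups (adjusted p up to 0.113). The spleen call of Stom was lost with that pseudocount, no filter, the fit of 2 groups and voom (up to 0.131), its marrow call with no filter and voom (up to 0.0651), and Ackr1 with that pseudocount and voom (up to 0.107), while Flot1 passed in all 9.

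**Figure D4:**
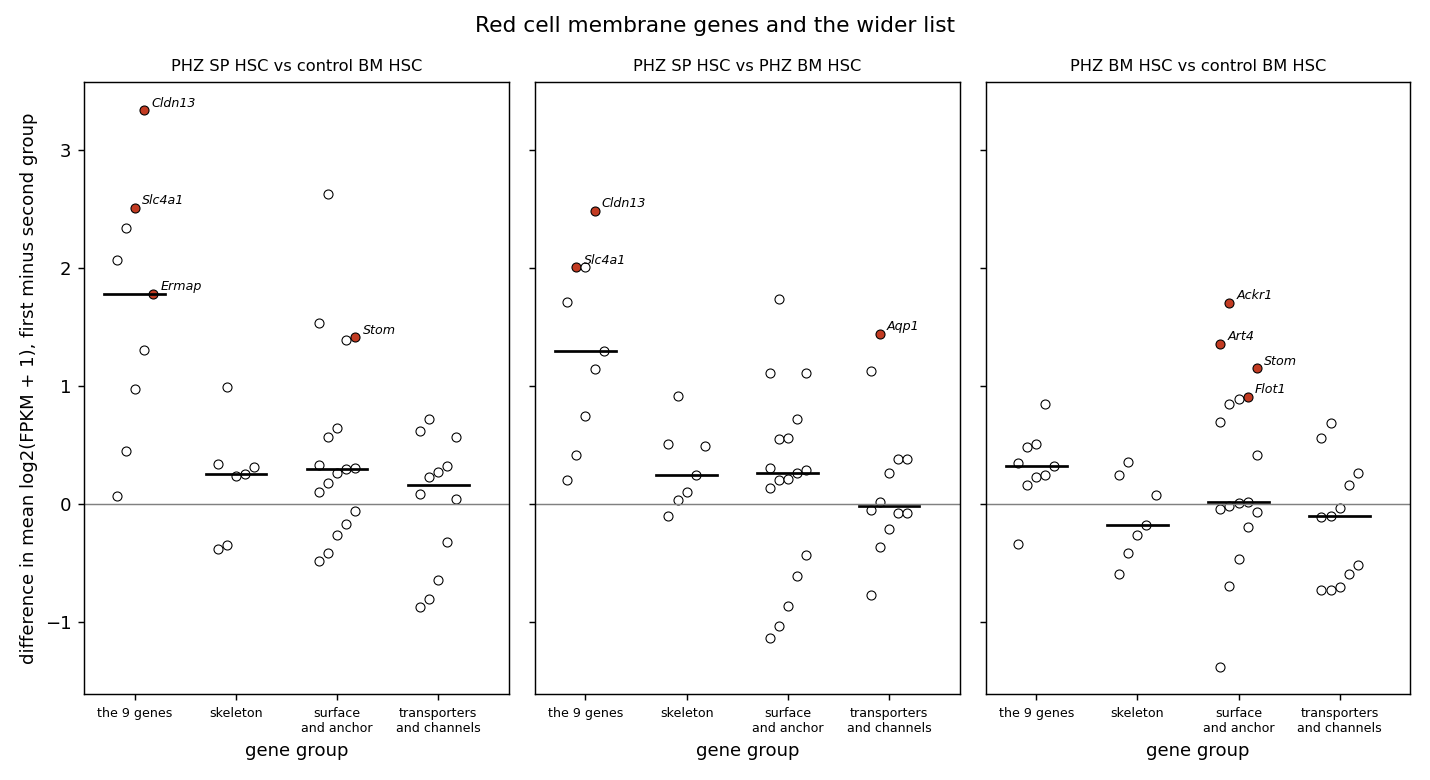
Difference in mean log2(FPKM + 1), first minus second group (y axis), for the 9 genes and the tested genes of the wider list by group (x axis), in 1 panel per comparison. Each point is a gene, lines are medians, and filled labelled points passed at an adjusted p of 0.05. The 9 genes have medians of 1.78 and 1.30 in the spleen panels, and the calls of the marrow panel are all among surface and anchor genes.

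The 5 non-member genes closest to the mean pattern of the 9 over the 8 libraries were 9530077C05Rik (r = 0.99), Ifit1bl1 (0.98), Lgmn (0.98), Pirb (0.98) and Cd36 (0.97), by Pearson r on standardised log2(FPKM + 1). Lgmn, the lysosomal protease legumain, averaged 0.804 ± 0.167 FPKM in control, 1.62 ± 0.153 in PHZ BM and 9.97 ± 0.114 in PHZ SP HSCs. Cd36, a scavenger receptor also known from erythroid progenitors, averaged 0.398 ± 0.164, 0.524 ± 0.0618 and 2.82 ± 0.892 FPKM. None of the 5 is on the wider membrane list, and the 8 points share their tissue and treatment within each group.

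Some markers of other cells were higher in the spleen libraries and others were not. The 10 erythroblast markers found (of 13 looked for) summed to 156 to 331 FPKM in control, 264 to 395 in PHZ BM and 971 to 1173 in PHZ SP HSCs. Of these, 5 were called higher in spleen than in control in limma, namely Klf1, Tfrc, Hba-a1, Hbb-bt and Trim10, beside 0.626% of all tested genes, and 3 were called with voom on reads. Against PHZ BM HSCs, 1 of the 10 was called, which was Hbb-bt, beside 0.608% of all tested genes. Hba-a1 (291 and 357 FPKM) and Hbb-bt (579 and 731 FPKM) made up most of the spleen sum, while Tal1 and Gfi1b in spleen overlapped with both marrow groups. The globin genes have near-identical copies among which reads may be split. None of the 10 was at 0 in all libraries of a group. The 8 neutrophil markers summed to 428 to 737 FPKM in control, 505 to 1055 in PHZ BM and 1410 to 1792 in PHZ SP HSCs, so that spleen lay above all marrow libraries. S100a8 and S100a9 made up most of the spleen sum. Prtn3 in spleen (111 and 133 FPKM) was below PHZ BM (169 to 214) and above control (81.5 to 109.9). Camp was above all marrow libraries, at 62.4 and 68.6 FPKM against at most 54.5. Ltf and Ngp were above PHZ BM and overlapped with control, and Elane overlapped with both marrow groups. Mpo read 2.87 and 3.09 FPKM in spleen, above control (0 to 1.48) and inside the PHZ BM range (0.294 to 12.0). S100a8 was higher in spleen than in control by 1.72 ± 0.32 on the log2 scale (limma adjusted p = 0.0422) and than in PHZ BM by 1.77 ± 0.32 (limma adjusted p = 0.0281). The 10 macrophage markers summed to 12.5 to 29.1 FPKM in control. They summed to 12.0, 23.8 and 85.3 in PHZ BM and to 46.0 and 70.6 in PHZ SP HSCs. The spleen sum was above all control libraries and overlapped PHZ BM only through PHZ BM HSC 3, where Hmox1 read 63.1 FPKM. Hmox1, Spic, C1qa and C1qc in spleen overlapped with control. Cd68 gave most of the spleen sum, at 34.4 and 57.6 FPKM against 0 to 8.48 in control and 4.93 to 16.7 in PHZ BM (3.60 ± 0.76 on the log2 scale from control, limma adjusted p = 0.0582). C1qb read 0.0822 and 0 FPKM in spleen against 0.188 to 2.93 in control. The remaining lists overlapped between spleen and control, with 26.8 to 50.6 and 38.3 to 53.8 FPKM for 6 B cell markers, 20.5 to 60.5 and 44.7 to 48.0 for 7 T and NK cell markers, 116 to 138 and 87.9 to 142 for 6 megakaryocyte markers, and 0.300 to 4.46 and 3.18 to 6.36 for 5 mast cell and basophil markers. Nkg7 gave most of the T and NK sum in every library. Cd3d, Cd3g and Il2rb were low but higher in both spleen libraries than in all marrow libraries, Cd3d at 0.953 and 1.23 FPKM against 0 in every control library and at most 0.767 in PHZ BM. Within the same list, Klrb1c, which encodes the NK1.1 receptor, stood apart from the list's sum, at 0.555 to 1.40 FPKM in control, 2.31 to 3.07 in PHZ BM and 14.7 and 18.4 in PHZ SP HSCs. It was higher in spleen than in control by 3.19 ± 0.28 on the log2 scale (limma adjusted p = 0.000866) and than in PHZ BM by 2.29 ± 0.28 (limma adjusted p = 0.00477), and, like S100a8 and the other markers singled out here, was named after its values were seen. Cd48, a gene whose product the sort selected against, read 0 to 2.75 FPKM in control, 0.179 to 3.38 in PHZ BM and 7.07 to 8.16 in PHZ SP HSCs. Flt3, listed with Cd48 as low in the sort, read 5.76 to 6.15 FPKM in PHZ SP HSCs. That was above control (2.19 to 5.72) and below PHZ BM (6.64 to 10.8). The 10 HSC markers were at 1 FPKM or more in every library and summed to 413 to 556 FPKM, without separation of the groups. The part of other cells in the spleen values was not tested.

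Library depth was similar among groups, from 8222267 to 13212846 reads, of which the ribosomal precursor Rn45s took 43.3% to 48.5%, and 11443 to 12302 genes had at least 10 reads. The 1046 and 1116 Slc4a1 reads in spleen and the 0 to 14 Cldn13 reads in control show how unevenly this depth served the 9 genes. Coordinates in GRCm38.p6 place Slc4a1 at chr11:102348820-102365281, Cldn13 at chr5:134914250-134915530, Ermap at chr4:119175457-119190013, Add2 at chr6:86028681-86124409, Ank1 at chr8:22974836-23150501, Epb42 at chr2:121017891-121036877 and Rhag at chr17:40811099-40844094. Car1 (chr3:14766214-14808365) and Car2 (chr3:14886269-14900770) lie in the same carbonic anhydrase cluster, with Car3 between them and Car13 also in it. All 9 are annotated as protein-coding, and the values count reads over whole genes, not single exons or UTRs.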

How the data were processed

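RNA of sorted HSCs was amplified by the authors with SMART-Seq2, made into Nextera XT libraries, mapped with STAR to mm10 (GRCm38) and compared with DESeq2; the gene counter, annotation and strand handling are not given in the sources used here. The authors deposited FPKM values in 3 tables, 1 per group, whose marrow columns are named WBM where the titles say BM_HSC. The authors' own tables of fold changes and p-values for their comparisons were not used. All 110442 values above 0 were whole multiples of 1 read (tolerance 0.0001 reads), so reads were recovered, and FPKM was put on 1 scale with median-of-ratios factors over all 8 libraries (largest shift 1.05%). The tables had been scaled separately, hence this step.

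Genes at 1 FPKM or more in at least 2 libraries (11347 of 15142) were tested with limma 3.58.1 (R 4.3.3) on log2(FPKM + 1), trend and robust, in 1 fit of 8 libraries by group, two-sided, with Benjamini-Hochberg adjustment at 0.05. The pseudocount understates changes of low genes. The script was tested on simulated data. Alternatives were another pseudocount, filters, scaling, samples, voom on reads, a replicate block and leaving out each library. All 9 members were described, with 7 set genes of the wider list and those that passed; some genes are not reported here and are left out of the lists and their counts. The members and lists were chosen with earlier results of these data known. Reads lack molecular identifiers, so limits cover counting error only. Start-site sequences are from RefSeq, build GRCm38.p6. Tables were made with Python 3.11.15.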

Additional observations from a re-analysis of the deposited data

How the results depend on the processing

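Among the fits that left out 1 library, the members called numbered 1 to 3 in spleen against control and 0 to 3 in spleen against PHZ BM. The wider list gave 0 to 1, 0 to 2 and 0 to 3 calls in spleen against control, spleen against PHZ BM and PHZ BM against control. Requiring 10 reads in every library left 3 members to test and 1 call in either spleen comparison, because low members dropped out. In spleen against PHZ BM, a pseudocount of 0.1 FPKM and voom each gave 1 member call. The wider list in spleen against control had 0 calls with a pseudocount of 0.1 FPKM, 0 without a filter and 0 with voom; in PHZ BM against control it had 2 under each of pseudocount 0.1 FPKM, no filter and voom. The cause was not tested.

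Same-numbered libraries did not deviate together (r between -0.01 and 0.06), so the numbers were not taken as pairs. With a replicate block, 4 members passed in spleen against control and 3 in spleen against PHZ BM, Rhag being the addition (adjusted p = 0.027 and 0.0429), and none in marrow; the wider list gave 2, 1 and 4 calls. Car2 in spleen against control turned to -0.069 with the block and to -0.004 with equal totals. Leave-out fits ranged from -0.043 to 0.15 for that value, from -0.054 to 0.63 for Epb42 in spleen against PHZ BM, and from -0.23 to 0.67 for Rhag and -0.28 to 0.79 for Car1 in PHZ BM against control. Of 412 refits of single members' differences, 380 kept direction and side of the threshold. Most of the 412 were of differences not called in the main fit, which had no call to lose. Calls were lost in 20 refits. Ermap in spleen against control passed in 1 of 6 leave-out fits and 3 of 8 other alternatives. The ratio of spleen to control given for Ank1 rests on 6 to 45 reads per control library, which limits its precision. That of Slc4a1 rests on 101 to 257.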
